A study of Vitis vinifera with 27 samples.

Results

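The transcriptomes of berries from vines whose basal leaves had been removed at véraison (LR-V) were compared with those of berries from non-treated control vines (C) at stage E-L 37, the end of véraison, when the berries are coloured but not quite ripe. The libraries were chosen by treatment and stage from the sample labels, which gave 6 of the 27 libraries of the series, LR-V replicates A, B and C against C replicates A, B and C. Of the 28940 genes listed, 27473 were above 0 in any library, and the 19761 with a value of at least 1 FPKM (fragments per kilobase of transcript, scaled to the mapped fragments of the library) in at least 3 of the 27 libraries were tested. All berries were Cabernet Sauvignon (Vitis vinifera L.) grown on own-rooted vines of a commercial vineyard in a single season, and the seeds were taken out before RNA extraction. C vines kept all their leaves, LR-V vines lost the lowest leaves of their cluster-bearing shoots at véraison, and on leaf moving vines (LM-V), used here only for comparison, these leaves were tied aside at véraison and stayed attached. The series sampled the 3 groups at E-L 36, 37 and 38 to ask how sunlight on the clusters alters phenolic compounds and the genes behind them. Each library is a biological replicate drawn from its own set of vines, so n = 3 for every group below. RNA came from whole deseeded berries, and fewer cells of a type and less RNA per cell cannot be told apart in such samples.

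Red grape berries colour from véraison on, when anthocyanins accumulate in the skin. Phenylalanine ammonia-lyase (PAL) opens the phenylpropanoid pathway, chalcone synthase (CHS) and chalcone isomerase (CHI) build the flavonoid skeleton, flavonoid 3′-hydroxylase (F3′H) and flavonoid 3′,5′-hydroxylase (F3′5′H) add hydroxyl groups to its B-ring, and leucoanthocyanidin dioxygenase (LDOX) and a glucosyltransferase (UFGT) finish the pigment. F3′5′H opens the branch to delphinidin-type anthocyanins, among them the malvidin glucosides that give Cabernet Sauvignon its dark colour. At the same time the berry softens and expands while wall enzymes, such as the xyloglucan endotransglucosylase/hydrolases (XTH), cut and rejoin the xyloglucan that ties cellulose together.

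The 6 libraries were of similar relative depth, 0.935 to 1.007 of that of C replicate A as read from the smallest steps of the values, while the absolute depth is unknown. Between 16600 and 17534 genes reached 1 FPKM in a library, and correlations of log2 values were 0.967 to 0.976 among C libraries, 0.941 to 0.972 among LR-V libraries and 0.935 to 0.962 between the groups. Among these 6, LR-V replicates A and C stood apart in composition, with 34.2% and 33.8% of the summed FPKM in their 10 most abundant transcripts. This share was 25.5% in LR-V replicate B and 25.5 to 26.2% in C. In LM-V at E-L 37 it was 30.2%, 31.1% and 29.3% in replicates A, B and C, above every C library and LR-V replicate B. The summed level of the 10 seed markers was 67.9, 143 and 25.6 FPKM in C replicates A, B and C and 63.2, 697 and 301 in the LR-V replicates, so LR-V replicates B and C held more seed transcripts than any C library. The defining seed storage genes were at 1.05, 0 and 0 FPKM in C and 0.26, 15.9 and 3.9 in LR-V (VIT_219s0177g00090, 2S albumin-like) and at 2.0, 4.88 and 0 in C and 0.11, 47.2 and 15.5 in LR-V (VIT_206s0004g03260, vicilin-like). Summed levels of the 26 listed green tissue markers (21 tested) were 198 to 242 FPKM in C and 256 to 305 in LR-V. Those of the 5 listed vascular markers (4 tested) were 62.1 to 69.3 in C and 29.3 to 57.1 in LR-V. The part of these transcripts in the differences below was not tested, other than by fitting the seed storage level as a covariate. The ripening-related berry gene GRIP22 (VIT_206s0004g02560) was abundant in every library, at 1865, 2305 and 1489 FPKM in C and 4643, 3245 and 4552 in LR-V. It was called higher in LR-V (limma adjusted p = 0.00968), but not without C replicate C (0.0612), LR-V replicate A (0.0518) or LR-V replicate C (0.0621), with 0.00635 to 0.0621 over the alternatives. The ripe flesh markers moved in both directions, and of the 12 tested 3 rose and 3 fell (3 and 1 after median-of-ratios scaling). Log2 differences were 0.98 to 1.31 for the rises and -0.98 to -1.93 for the falls, so the list median of 0.02 hides changes both ways. The called share of this list was above the 5.01% of all tested genes, but only 1 of its calls held without each library.

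LR-V berries differed from C berries in 991 of the 19761 tested genes (5.01%), with 353 higher (1.79%) and 638 lower (3.23%) in LR-V by limma at a Benjamini-Hochberg adjusted p under 0.05. The groups did not overlap in 970 of these genes, while over all tested genes the 3 LR-V libraries lay above all 3 C libraries for 6.73% and below them for 18.6%. The median log2 difference over all tested genes was -0.09, and scaling each library to a common typical gene level (median of ratios) brought it to 0.003. After this scaling 797 genes (4.03%) were called, 521 higher (2.64%) and 276 lower (1.4%), so the balance between higher and lower genes turned with the scaling, although 351 higher and 276 lower genes were called under both and 0 in opposite directions. Log2 differences below are as deposited, with the shift of -0.09 in them, and counts after scaling are given beside the counts as deposited. Without C replicate A, B or C the number of called genes was 623, 364 or 460, and without LR-V replicate A, B or C it was 445, 1523 or 322. Without each of the 6 in turn, 236 of the 991 genes stayed called, and a fit of these 6 libraries alone called 249.

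**Figure D1:**
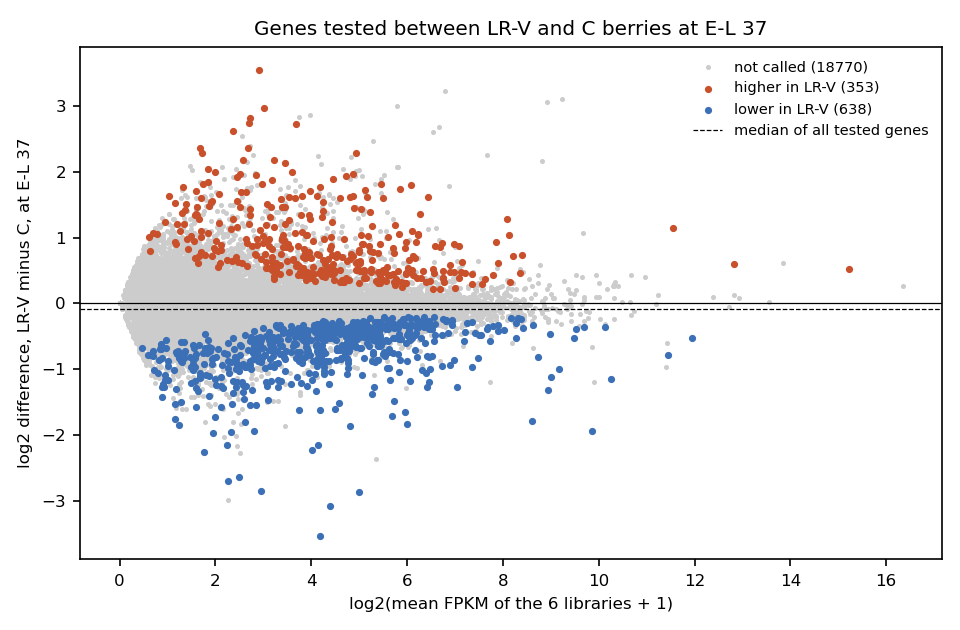
Each point is a tested gene, with log2(mean FPKM of the 6 libraries + 1) on the x axis and the log2 difference, LR-V minus C, at E-L 37 on the y axis. The 353 called higher genes are orange, the 638 called lower genes blue and the others grey, and the dashed line marks the median of -0.09, which lies just below 0.

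F3′5′H was the enzyme family with the largest share of called members among the flavonoid families with more than 4 tested genes. Of 11 tested F3′5′H genes (18 listed) 8 fell in LR-V (72.7%, against 3.23% of all tested genes), 0 rose, and the median log2 difference was -1.17, against -0.09 over all tested genes. The same count of 8 was lower after median-of-ratios scaling, with a median of -1.08, and 9 were lower with the seed covariate. The most expressed member, VIT_206s0009g02830, was at 102, 137 and 123 FPKM in C and 50.3, 58.3 and 47.7 in LR-V. Every LR-V library was thus below every C library, with a log2 difference of -1.19 ± 0.18 (SE) and an adjusted p of 0.000646 (limma). VIT_206s0009g02970 (64.5, 80.4 and 59.3 FPKM in C, 32.3, 36.4 and 21.6 in LR-V) and VIT_206s0009g02840 (50.2, 56.5 and 59.7 in C, 21.2, 21.2 and 24.6 in LR-V) showed falls of similar size. Their log2 differences were -1.17 ± 0.18 and -1.27 ± 0.19, and their adjusted p values 0.000496 and 0.000491. The largest falls came from members of lower level. VIT_206s0009g03000 dropped from 21.6, 34.0 and 21.4 FPKM in C to 2.97, 6.64 and 4.72 in LR-V (log2 -2.22 ± 0.43, adjusted p = 0.00426), and VIT_206s0009g03010 from 31.5, 34.1 and 32.0 to 6.7, 13.5 and 11.0 (log2 -1.61 ± 0.28, adjusted p = 0.0021). In the last 2 genes LR-V replicate A was the lowest and B the highest of the treated libraries, and no LR-V library reached a C library. VIT_206s0009g02810, the member that the study names, was at 75.9, 117 and 79.1 FPKM in C and 31.5, 58.6 and 31.8 in LR-V (adjusted p = 0.0224). Its call was lost without C replicate B (adjusted p = 0.112), LR-V replicate A (0.0994) or LR-V replicate C (0.124), with 0.00542 to 0.124 over all alternatives. Of the 8 calls, 6 held without each library in turn. The identifiers of these genes mostly begin with VIT_206s0009, and their sequences were not compared. Short reads can be shared among genes alike in sequence, so the split of a fall between members is uncertain. The summed level of the family is less so. That sum was 407, 590 and 455 FPKM in C and 180, 238 and 167 in LR-V.

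Members of other families of the pathway were lower too, though most of those families had few calls. The counts below stand against 3.23% called lower and 1.79% called higher among all tested genes. Of 4 tested CHS genes 2 fell (2 after scaling), VIT_205s0136g00260 from 659, 880 and 737 FPKM in C to 348, 498 and 306 in LR-V (log2 -1.003 ± 0.17, adjusted p = 0.00152) and VIT_214s0068g00920 from 192, 233 and 214 to 101, 146 and 85.2 (log2 -0.97 ± 0.16, adjusted p = 0.00152). Both calls held without each library in turn, and the CHS genes not called were hardly expressed. Both tested CHI genes fell, also after scaling, and VIT_213s0067g03820, the more expressed of them, was at 103, 112 and 97.8 FPKM in C and 43.0, 79.0 and 38.8 in LR-V (log2 -1.01 ± 0.22, adjusted p = 0.0114). Its call was lost without C replicate B, LR-V replicate A or LR-V replicate C (adjusted p of 0.058, 0.065 and 0.093, and 0.000667 to 0.104 over the alternatives), and of the 2 CHI calls 1 was left without C replicate B or C and 0 without LR-V replicate A or C. Of 3 tested LDOX genes 1 fell under either scaling, with a list median near 0. This gene, VIT_202s0025g04720, was at 140, 213 and 189 FPKM in C and 59.4, 122 and 55.1 in LR-V, with a log2 difference of -1.26 ± 0.25 and an adjusted p of 0.00462. In this LDOX gene and in CHI VIT_213s0067g03820 alike LR-V replicate B lay between C and the other treated libraries. At the entry of the pathway 2 of 15 tested PAL genes were lower (2 after scaling), among them PAL1 VIT_206s0004g02620, with 19.97, 26.3 and 23.2 FPKM in C and 6.36, 14.2 and 6.72 in LR-V (log2 -1.33 ± 0.24, adjusted p = 0.00262), and this call held without each library. In PAL 0 genes were called higher (1 without C replicate A), and the list median was -0.18. The 4 PAL genes that the study correlates with flavonoid content had positive log2 differences but were not called. These were 1.15 (VIT_216s0039g01100), 0.66 (VIT_216s0039g01110), 0.81 (VIT_216s0039g01120) and 1.24 (VIT_216s0039g01130). The last of them had groups that did not overlap (limma adjusted p = 0.0541). F3H, the step just before the B-ring hydroxylases, had 1 of 2 tested genes called lower, C4H 1 of 3, 4CL 1 of 6 and UFGT 1 of 5, and LAR, an enzyme of flavan-3-ols, had 1 of 2. In each of these 5 families the single call was lost after scaling, and 0 held without each library. F3′H, which makes the cyanidin-type precursors, had 0 of 6 tested genes called, with a median of -0.54 and a smallest adjusted p of 0.0727. An unadjusted p under 0.05 (limma) was found for 5 of the 6, and for 21% of all tested genes. No call was made for 14 FLS, 5 DFR and 2 ANR genes (3, 0 and 0 at an unadjusted p under 0.05, limma), which encode the enzymes of flavonols, of the step before LDOX and, beside LAR, of flavan-3-ols.

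A methyltransferase and a MYB gene were also lower. VIT_201s0010g03510, annotated as caffeoyl-CoA O-methyltransferase and also under the anthocyanin process, had the smallest adjusted p of all members of the phenylpropanoid and flavonoid lists. It was at 22.2, 30.0 and 26.3 FPKM in C and 7.56, 11.5 and 5.34 in LR-V, a log2 difference of -1.62 ± 0.22 (adjusted p = 0.000202). VIT_202s0033g00390, annotated as MYBA3, belongs to the MYBA genes, which include regulators of UFGT. It was at 164, 164 and 135 FPKM in C and 68.3, 102 and 72.6 in LR-V, with a log2 difference of -0.94 ± 0.14 (adjusted p = 0.000491). The groups did not overlap in either gene, and both calls held without each library. The study names MYBA2 beside MYBA1 as a regulator of the anthocyanin branch, and whether VIT_202s0033g00390 is MYBA2 was not checked. MYBA1 VIT_202s0033g00410, itself a regulator of UFGT, was not called, with 20.1, 22.3 and 12.4 FPKM in C and 12.3, 11.4 and 13.5 in LR-V (log2 -0.49 ± 0.23, adjusted p = 0.235), and its groups overlapped. Over the MYB family, 10 of 76 tested genes fell and 2 rose (15.8% called, against 5.01% of all tested genes, and 7 and 2 after scaling). The number of MYB falls depended on single libraries, with 5, 4 and 6 without C replicate A, B and C and 5, 13 and 4 without LR-V replicate A, B and C. The strongest fall in the family was VIT_216s0039g01920, at 7.09, 8.52 and 4.1 FPKM in C and 0, 2.09 and 0.44 in LR-V (log2 -2.15 ± 0.36, adjusted p = 0.00142), whose annotation also names an RNA helicase. Of the 50 genes that the study names by identifier, 46 were tested, and 4 were called higher and 6 lower. Over all tested genes 1.79% were called higher and 3.23% lower. The study listed many of its genes for their responses in these same libraries, so a share above that of all tested genes was partly fixed by that choice.

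**Figure D2:**
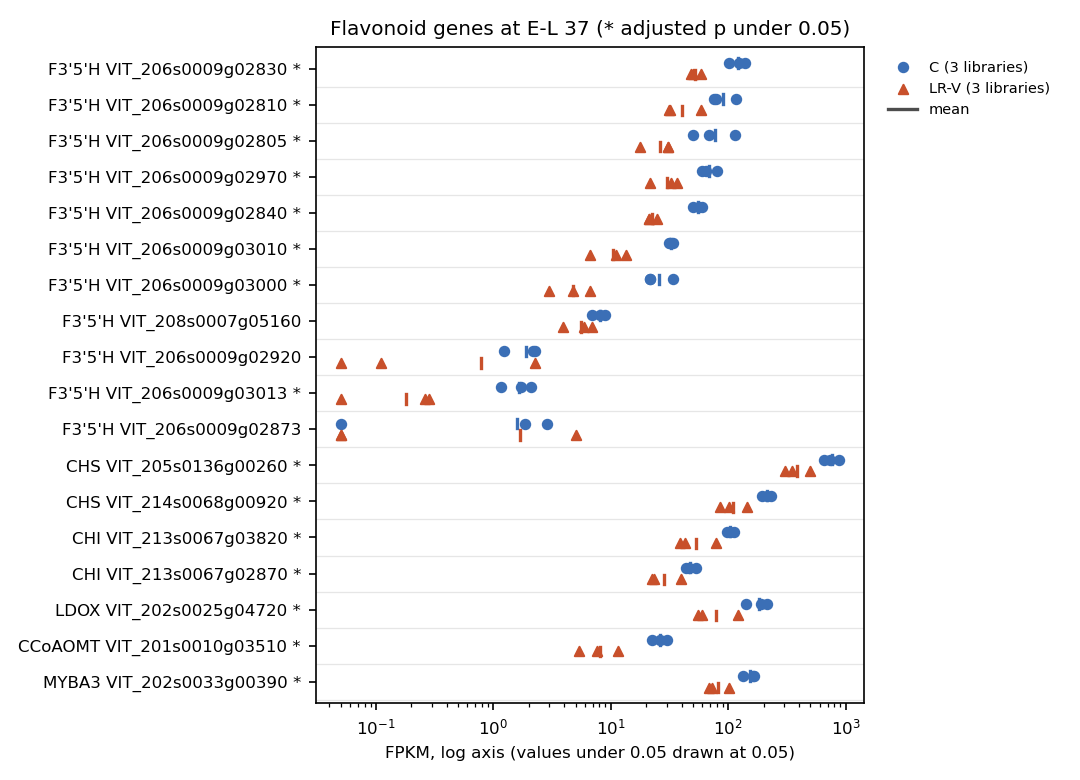
FPKM on a log axis for the 11 tested F3′5′H genes and 7 called genes of CHS, CHI, LDOX, CCoAOMT and MYBA3, with blue circles for the 3 C libraries, orange triangles for the 3 LR-V libraries and a bar for each mean. An asterisk marks an adjusted p under 0.05, and values under 0.05 FPKM are drawn at 0.05. In each gene with an asterisk all triangles lie left of all circles, and CHS VIT_205s0136g00260 is the most abundant, at 306 to 498 FPKM in LR-V and 659 to 880 in C.

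Among genes of the berry surface, of 34 tested cuticle and wax genes 8 fell and 1 rose (7 and 2 after scaling). These are 26.5% called, against 5.01% of all tested genes, which also had more falls (3.23%) than rises (1.79%). The list median was -0.17, and 6 of the 9 calls held without each library. They include 3-ketoacyl-CoA synthases, which lengthen fatty acids for wax. The member VIT_214s0006g02990 was at 29.1, 44.7 and 33.2 FPKM in C and 17.6, 15.4 and 15.5 in LR-V (log2 -1.08 ± 0.17, adjusted p = 0.000607), and KCS10 VIT_204s0008g02250 at 66.3, 89.0 and 67.4 in C and 42.0, 43.5 and 34.6 in LR-V (log2 -0.87 ± 0.15, adjusted p = 0.00239). VIT_213s0074g00390, a cytochrome P450 of the CYP77A family that hydroxylates cutin monomers in Arabidopsis, was at 19.9, 24.3 and 19.96 FPKM in C and 11.99, 11.2 and 10.8 in LR-V (log2 -0.86 ± 0.14, adjusted p = 0.00111). In these 3 genes the treated libraries lay close together and below every control. A transporter of the ABCG family, whose members export surface lipids among other substrates, VIT_216s0039g00010, was at 37.3, 51.9 and 39.8 FPKM in C and 19.96, 29.6 and 22.2 in LR-V (log2 -0.83 ± 0.15, adjusted p = 0.00257). It was 1 of 5 falls among 28 tested ABCG genes, of which 2 were left after scaling or without C replicate A, and 1 without C replicate B, LR-V replicate A or LR-V replicate C.

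Carriers of the MATE family, which in grape include the vacuolar transporters of acylated anthocyanins, fell in 6 and rose in 1 of 28 tested genes (4 and 1 after scaling). The calls were 25.0% of the MATE list and 17.9% of the ABCG list, against 5.01% of all tested genes. The ABCG and MATE lists were added after values of these data had been seen. VIT_216s0050g00910, annotated like TRANSPARENT TESTA 12, a vacuolar flavonoid carrier of Arabidopsis, was at 105, 139 and 111 FPKM in C and 55.9, 62.1 and 56.3 in LR-V, a log2 difference of -1.004 ± 0.18 (adjusted p = 0.00208). A second such gene, VIT_212s0028g01160, was at 30.5, 33.4 and 39.4 FPKM in C and 13.8, 24.2 and 17.1 in LR-V (log2 -0.90 ± 0.17, adjusted p = 0.00365). These 2 calls held without each library, but the number of MATE falls was 2 without C replicate B or LR-V replicate C and 3 without C replicate C or LR-V replicate A.

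Defence genes moved in both directions. The gene with the largest fall of the whole comparison was VIT_203s0088g00710, a pathogenesis-related protein 1 (PR-1), a marker of salicylate responses, at 58.0, 36.4 and 5.23 FPKM in C and 1.29, 1.03 and 0.91 in LR-V. The control libraries themselves spanned a wide range, and all were above LR-V (log2 -3.53 ± 0.68, adjusted p = 0.0042). Other PR-1 genes that the study names were not called, and their groups overlapped. Their log2 differences were positive, from 0.35 (VIT_203s0088g00780) to 1.17 (VIT_203s0088g00810). Over the salicylate and PR-1 list 2 of 54 tested genes rose and 1 fell (5.56% called, against 5.01% of all tested genes). Of 12 tested PR-10 genes, which encode small cytosolic defence proteins related to the allergens of birch and cherry, 3 fell and 0 rose, also after scaling, and 1 of these falls was left without LR-V replicate C. The falls were 25.0% of the list, against 3.23% falls among all tested genes, but this list too was added after values had been seen. VIT_205s0077g01580 was at 612, 621 and 562 FPKM in C and 141, 247 and 146 in LR-V (log2 -1.79 ± 0.34, adjusted p = 0.00382), and its neighbour by identifier VIT_205s0077g01570 at 115, 93.5 and 88.0 in C and 23.5, 38.4 and 21.1 in LR-V (log2 -1.84 ± 0.39, adjusted p = 0.00893). The second call was lost without LR-V replicate C (adjusted p = 0.0621, the highest of its alternatives, which start at 0.00635). Reads may be shared between these 2 genes, whose sequences were not compared. The summed level of all PR-10 genes, 2100 to 2455 FPKM in C and 2070 to 2130 in LR-V, moved far less than these members. Among chitinases, glucanases and thaumatin-like proteins 3 of 43 tested genes rose and 4 fell (3 and 2 after scaling). These are 16.3% called, against 5.01% of all tested genes. The falls numbered 2, 1 and 3 without C replicate A, B and C. Without LR-V replicate A, B and C they numbered 1, 6 and 0. The chitinase VIT_205s0094g00360 rose from 1.2, 0.68 and 0.49 FPKM in C to 8.56, 14.2 and 17.0 in LR-V, a log2 difference of 2.97 ± 0.34 (adjusted p = 4.17e-05), and the thaumatin-like VIT_204s0023g03550 from 8.05, 10.2 and 10.3 to 26.6, 17.3 and 33.4 (log2 1.31 ± 0.21, adjusted p = 0.00082). Both held without each library.

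Among the lists with 40 or more tested genes, the enzymes of xyloglucan had the largest share of called members. Of 46 tested genes (58 listed) 11 rose and 3 fell (30.4% called, against 5.01% of all tested genes), with 12 and 1 after scaling and 11 and 1 with the seed covariate. Of the 14 calls 11 held without each library in turn, and the rises numbered 10 to 12, whereas the number of falls was 1 without C replicate B or C or LR-V replicate A or C. Of the rises, 8 carry identifiers that begin with VIT_211s0052. Their sequences were not compared, and reads may be shared among those that are alike. VIT_211s0052g01320 had the smallest adjusted p of the list, with 1.01, 1.04 and 1.42 FPKM in C and 9.97, 8.55 and 7.72 in LR-V, a log2 difference of 2.17 ± 0.25 (adjusted p = 3.84e-05). VIT_211s0052g01260 was the most expressed of the cluster, at 28.9, 23.1 and 24.2 FPKM in C and 105, 72.9 and 85.9 in LR-V (log2 1.74 ± 0.23, adjusted p = 0.000199). VIT_211s0052g01180 went from 9.56, 8.41 and 6.62 FPKM to 42.0, 24.6 and 34.4 (log2 1.89 ± 0.27, adjusted p = 0.000271), and VIT_211s0052g01300 from 17.1, 16.2 and 12.3 to 63.0, 43.8 and 50.6 (log2 1.72 ± 0.25, adjusted p = 0.000422). In the last 3 genes replicate B was the lowest LR-V library, and still above every C library. VIT_211s0052g01190, which the study lists as TCH4, an XTH known as touch-induced in Arabidopsis, was at 16.6, 12.8 and 14.8 FPKM in C and 52.1, 35.6 and 39.4 in LR-V (log2 1.45 ± 0.21, adjusted p = 0.000423).

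Of 13 tested expansins, proteins that loosen the bonds between wall polymers, 1 rose and 0 fell under either scaling. This was the expansin-like A2 gene VIT_203s0038g03430, at 46.0, 37.8 and 44.6 FPKM in C and 112, 106 and 114 in LR-V (log2 1.35 ± 0.20, adjusted p = 0.000496). The most expressed called xyloglucan gene, the xylosyltransferase VIT_217s0000g06590, which adds the side chains, rose by less, from 56.6, 55.8 and 45.5 FPKM to 71.7, 69.96 and 72.6 (log2 0.44 ± 0.09, adjusted p = 0.00569). Of 64 tested pectin enzymes 1 rose and 2 fell (2 and 1 after scaling, and 7 falls without LR-V replicate B or 1 without C replicate B, LR-V replicate A or LR-V replicate C), and of 35 cellulose synthases 1 rose and 2 fell under either scaling, and 0 of the cellulose synthase calls held without each library. The calls were 7.69% of the expansins, 4.69% of the pectin enzymes and 8.57% of the cellulose synthases, against 5.01% of all tested genes.

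Among calcium sensors and transporters, of 142 tested genes 15 rose and 1 fell (11.3% called, against 5.01%, 20 and 0 after scaling, 13 and 1 with the seed covariate), with a list median of 0.05 and 10 to 15 rises when a library was left out. The calmodulin-like protein VIT_205s0102g00450 shared the smallest adjusted p of the whole comparison, with 13.4, 12.9 and 13.7 FPKM in C and 44.0, 41.2 and 44.3 in LR-V, and the libraries of each group differed by little (log2 1.62 ± 0.17, adjusted p = 2.11e-05). VIT_217s0000g02480, another calmodulin-like gene and the most expressed of the called ones, was at 167, 154 and 154 FPKM in C and 286, 306 and 318 in LR-V (log2 0.93 ± 0.11, adjusted p = 6.6e-05). CML48 VIT_206s0080g00450 rose from 11.5, 7.16 and 9.43 FPKM to 31.4, 19.1 and 29.5 (log2 1.41 ± 0.20, adjusted p = 0.000263), and the calcium-transporting ATPase VIT_200s0691g00010, of the pumps that return calcium out of the cytosol, from 5.57, 4.96 and 4.06 to 12.5, 7.85 and 11.4 (log2 0.97 ± 0.14, adjusted p = 0.000422). All 4 held without each library.

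Regulators that respond to wounding, pathogens and jasmonate in many plants were found among the rises. TIFY 5A VIT_210s0003g03810, a gene of the JAZ family of jasmonate repressors, was at 16.0, 12.6 and 9.98 FPKM in C and 41.3, 41.0 and 40.6 in LR-V (log2 1.62 ± 0.17, adjusted p = 2.11e-05). The 3 treated libraries were nearly equal and the groups far apart. Over the jasmonate list 7 of 70 tested genes rose and 2 fell (12.9% called, against 5.01% of all tested genes). The counts were the same after scaling, but only 3 rose with the seed covariate. The rises numbered 5, 2 and 1 without C replicate A, B and C. Without LR-V replicate A, B and C they numbered 7, 3 and 1. One of the less stable rises was VIT_211s0052g00100, annotated as MYC2, the factor that JAZ proteins restrain, and also as bHLH35, at 6.7, 5.05 and 4.9 FPKM in C and 10.6, 26.96 and 23.9 in LR-V (log2 1.63 ± 0.41, adjusted p = 0.0253). Its call was lost without C replicate B (adjusted p = 0.088), C replicate C (0.088), LR-V replicate B (0.065) or LR-V replicate C (0.13), with 0.014 to 0.455 over the alternatives, and its LR-V levels, like the seed markers, were higher in replicates B and C than in A.

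Of 85 tested AP2/ERF factors 9 rose and 3 fell (14.1% called, against 5.01% of all tested genes, and 11 and 1 after scaling). Of these calls 7 held without each library. The falls numbered 1, 0 and 1 without C replicate A, B and C. Without LR-V replicate A, B and C they numbered 0, 6 and 0. VIT_219s0138g00090 was at 19.1, 9.78 and 3.73 FPKM in C and 44.5, 48.9 and 51.2 in LR-V, a log2 difference of 2.28 ± 0.43 (adjusted p = 0.00393). The related VIT_216s0100g00380 went from 9.87, 3.76 and 0.83 FPKM to 17.9, 18.0 and 15.9 (log2 2.001 ± 0.38, adjusted p = 0.00382), and the more abundant VIT_216s0100g00400 from 54.6, 47.9 and 45.1 to 98.2, 93.4 and 91.6 (log2 0.93 ± 0.17, adjusted p = 0.00357). The LR-V libraries agreed closely in all 3 genes, and the spread lay in C, where replicate C was the lowest. WRKY factors, many of them regulators of defence, were called in 13 of 53 tested genes (24.5%, against 5.01% of all tested genes). Of these 7 were higher and 6 lower (7 and 1 after scaling). Of these, VIT_202s0025g00420, annotated like WRKY 22, rose from 7.45, 8.81 and 6.85 FPKM to 23.2, 18.2 and 21.8 (log2 1.34 ± 0.23, adjusted p = 0.00164), and VIT_208s0058g00690, annotated as WRKY 33, from 10.6, 10.3 and 5.99 to 16.1, 18.9 and 22.8 (log2 1.05 ± 0.21, adjusted p = 0.00553). The 6 WRKY falls became 0 without C replicate A or B or LR-V replicate C, 3 without C replicate C, 1 without LR-V replicate A and 7 without LR-V replicate B. The TGA factor VIT_210s0003g01730, from a bZIP group that partners the salicylate receptor in Arabidopsis, was at 37.5, 31.8 and 25.1 FPKM in C and 61.8, 59.0 and 69.5 in LR-V (log2 1.00 ± 0.13, adjusted p = 7.47e-05). Of 28 tested U-box ubiquitin ligases, a list added after values had been seen, 4 rose and 0 fell under either scaling, led by VIT_208s0105g00190 at 2.81, 2.29 and 0.93 FPKM in C and 7.86, 10.4 and 12.9 in LR-V (log2 1.96 ± 0.36, adjusted p = 0.00328). The U-box calls were 14.3% of the list, against 5.01% of all tested genes. The number of U-box rises was 2 without C replicate B or C or LR-V replicate C.

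**Figure D3:**
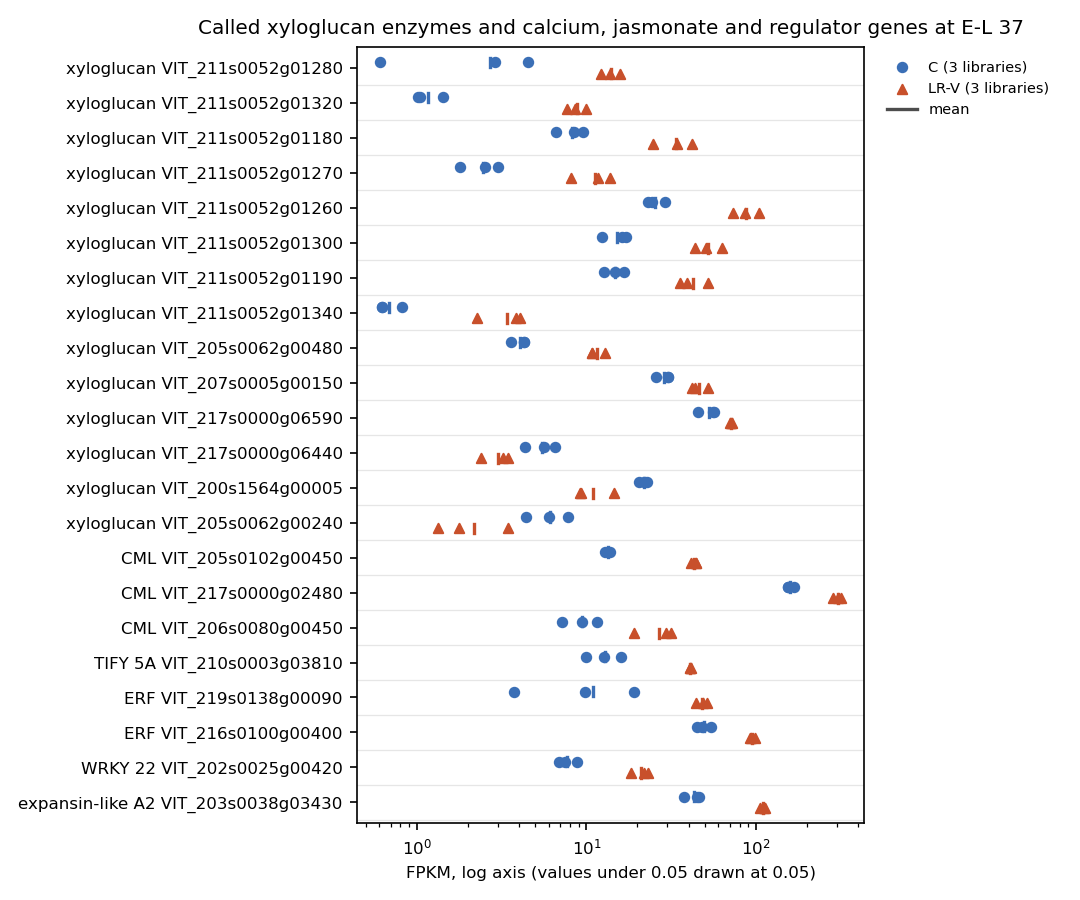
FPKM on a log axis at E-L 37 for the 14 called xyloglucan genes and for 8 calcium, jasmonate, ERF, WRKY and expansin genes, with blue circles for the 3 C libraries, orange triangles for the 3 LR-V libraries and a bar for each mean. In 11 of the xyloglucan genes and in the lower 8 genes all triangles lie right of all circles, as in CML VIT_205s0102g00450, at 41.2 to 44.3 FPKM in LR-V against 12.9 to 13.7 in C, and in 3 xyloglucan genes they lie left.

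The 10 largest rises also included glucosyltransferases that attach sugars to small molecules. VIT_205s0062g00310 and VIT_205s0062g00270, annotated as indole acetate glucosyltransferases, were at 1.66, 0.54 and 0 FPKM and at 2.85, 0 and 0 in C, and at 6.32, 9.2 and 15.1 and at 8.18, 9.6 and 12.8 in LR-V. Their log2 differences were 2.73 ± 0.52 and 2.82 ± 0.56 (adjusted p = 0.00393 and 0.00563), and neither call was lost when a library was left out. The largest rise, VIT_218s0001g06090, annotated as a cyanohydrin glucosyltransferase, was at 0, 0 and 0.43 FPKM in C and 6.88, 14.4 and 17.6 in LR-V (log2 3.54 ± 0.79, adjusted p = 0.0121). This call was lost without C replicate B (adjusted p = 0.054) or LR-V replicate C (0.073), with 0.00877 to 0.198 over the alternatives. Members of these families may share reads where they are alike in sequence, which was not checked, so the share of each is uncertain. VIT_207s0031g01980, annotated as the ERF factor ABR1, was at 0.28, 0.81 and 0.28 FPKM in C and 6.79, 7.56 and 9.18 in LR-V (log2 2.61 ± 0.54, adjusted p = 0.00702). The 12-oxophytodienoate reductase VIT_218s0041g02060, from a family with a member in jasmonate synthesis, was listed at 0 in all 3 C libraries and at 2.12, 5.23 and 5.93 FPKM in LR-V, and its call (adjusted p = 0.0157) was lost without C replicate B (0.058), C replicate C (0.051) or LR-V replicate C (0.093), with 0.0126 to 0.275 over the alternatives.

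The 10 largest falls held several genes with no functional annotation. VIT_218s0166g00250 was at 49.9, 20.9 and 38.8 FPKM in C and 4.59, 1.86 and 3.65 in LR-V (log2 -3.07 ± 0.43, adjusted p = 0.000295), and VIT_211s0016g01580 at 11.3, 7.77 and 3.21 in C and 0.65, 0 and 0 in LR-V (log2 -2.70 ± 0.36, adjusted p = 0.000132). VIT_206s0004g07550 fell from 22.3, 12.6 and 3.61 FPKM to 0.52, 0.88 and 0.34 (log2 -2.86 ± 0.48, adjusted p = 0.00139). In the last 2 genes, as in PR-1 VIT_203s0088g00710, C replicate C was the lowest control. VIT_205s0077g01150, which carries the GO term of a glucan endo-1,3-beta-glucosidase, was at 78.0, 54.1 and 25.3 FPKM in C and 0.91, 20.4 and 6.3 in LR-V (log2 -2.86 ± 0.59, adjusted p = 0.0074). VIT_208s0032g00240, annotated in the CYP71D family as a flavonoid 6-hydroxylase, was at 25.4, 30.0 and 26.0 FPKM in C and 3.09, 10.6 and 4.33 in LR-V (log2 -2.15 ± 0.44, adjusted p = 0.00689), with the same order of LR-V libraries as F3′5′H VIT_206s0009g03000.

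Several lists that answer to light or heat had called shares of 0 to 4.49% at E-L 37, against 5.01% of all tested genes. Heat shock proteins, at 4.49%, were near that share. All 4 of their calls were falls, against 3.23% falls among all tested genes. Of 69 tested light signalling genes 0 were called, and 11 had an unadjusted p under 0.05 (limma). Over all tested genes 21% had an unadjusted p under 0.05 (limma), which is the share to set beside such counts in this paragraph. Of 76 light-harvesting and photosystem genes 0 rose and 1 fell (0 after scaling), of 14 Calvin cycle genes and 7 heat stress factors 0 were called (1 and 1 at an unadjusted p under 0.05, limma), and of 89 heat shock proteins 0 rose and 4 fell (1 after scaling, and 0 held without each library). Their median log2 differences were -0.07, 0.10, 0.00, -0.14 and -0.05, against -0.09 over all tested genes. Of 39 tested stilbene synthases, which compete with CHS for substrate, 0 were called and 5 had an unadjusted p under 0.05 (limma), with a median of 0.56. The summed level of all 42 listed stilbene synthases was 149, 31.7 and 20.2 FPKM in C and 35.3, 138 and 132 in LR-V. The groups thus overlapped, and within LR-V the sum was higher in the replicates with more seed transcripts. Within C it was highest in replicate A, while replicate B held the most seed transcripts. The part of seed transcripts in this sum was not tested.

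**Figure D4:**
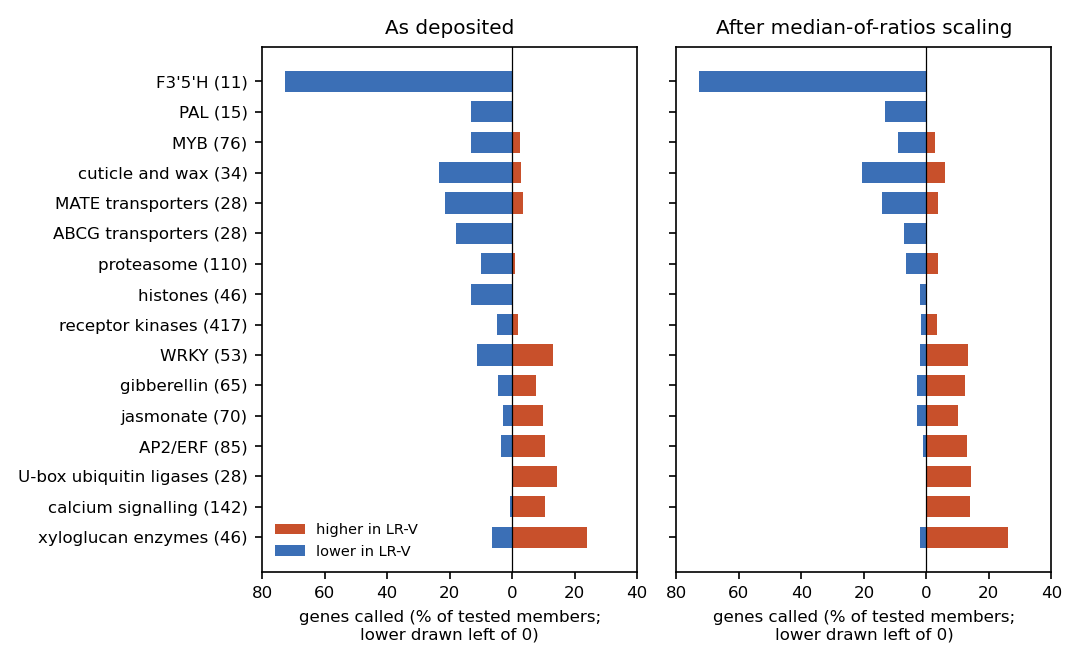
Share of the tested members of each list (number in brackets) that was called higher (orange, right of 0) or lower (blue, left of 0) in LR-V at E-L 37, in percent, with the values as deposited on the left and after median-of-ratios scaling on the right. F3′5′H is lower in 72.7% under both, whereas receptor kinases turn from 8 higher and 20 lower to 14 higher and 7 lower.

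The LR-V libraries at E-L 36 and 38 have their own controls, which allows the difference at E-L 37 to be set against them. Of the 353 genes higher at E-L 37, 58 also rose at E-L 36, which is 16.4% of them and 7.2% of the 806 genes higher there (4.08% of all tested genes), and 52 did so at E-L 38 (14.7% of them, and 2.6% of the 2001 genes higher there, which are 10.1% of all tested). Of the 638 lower genes, 16 also fell at E-L 36 (2.51% of them, and 5.56% of the 288 genes lower there, which are 1.46% of all tested), and 128 did so at E-L 38 (20.1% of them, and 8.46% of the 1513 genes lower there, which are 7.66% of all tested). In both directions together 5.54% of all tested genes were called at the earlier stage and 17.8% at the later one. Opposite calls were made for 5 and 27 of the higher genes and for 36 and 47 of the lower ones at E-L 36 and 38. The difference itself, the effect at E-L 37 minus the mean effect at the other stages, was called for 965 of 19761 genes (4.88%), 205 above and 760 below 0, or 391 and 424 after scaling, and among these were 131 of the 353 higher and 256 of the 638 lower genes. The number was 408, 420 or 455 without C replicate B, LR-V replicate A or LR-V replicate C at E-L 37, 1563 without LR-V replicate B, and 1619 without LR-V replicate B at E-L 38.

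Calls at the other stages varied from gene to gene. Over all tested genes 4.08% were higher and 1.46% lower at E-L 36, and 10.1% higher and 7.66% lower at E-L 38. The stage difference was called for 4.88% of them. In F3′5′H 2 genes were also called lower at E-L 36 and 3 at E-L 38, with medians of -0.34 and -0.48, and the stage difference was called for 3 of 11 tested genes. Among 46 tested xyloglucan genes 2 rose and 0 fell at E-L 36, and 6 rose and 4 fell at E-L 38, near the shares over all tested genes. Their stage difference was called for 12 of 46, including VIT_211s0052g01260 (log2 differences of 0.19, 1.74 and -0.34 from the earliest stage to the latest). For the calmodulin-like VIT_205s0102g00450 they were 0.08, 1.62 and -0.08, and for TIFY 5A VIT_210s0003g03810 0.24, 1.62 and -0.35. The PR-10 gene VIT_205s0077g01580 changed sign, with 0.56, -1.79 and 1.04, and was called higher at E-L 38 (adjusted p = 0.037, limma). WRKY VIT_202s0025g00420 was called higher at E-L 36 (0.93, adjusted p = 0.019) and at E-L 37, and lower at E-L 38 (-1.02, adjusted p = 0.0034). Photosystem genes, with 0 rises at E-L 37, had 18 of 76 tested genes higher at E-L 36 and 40 at E-L 38, and the stage difference was called for 13 of them.

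**Figure D5:**
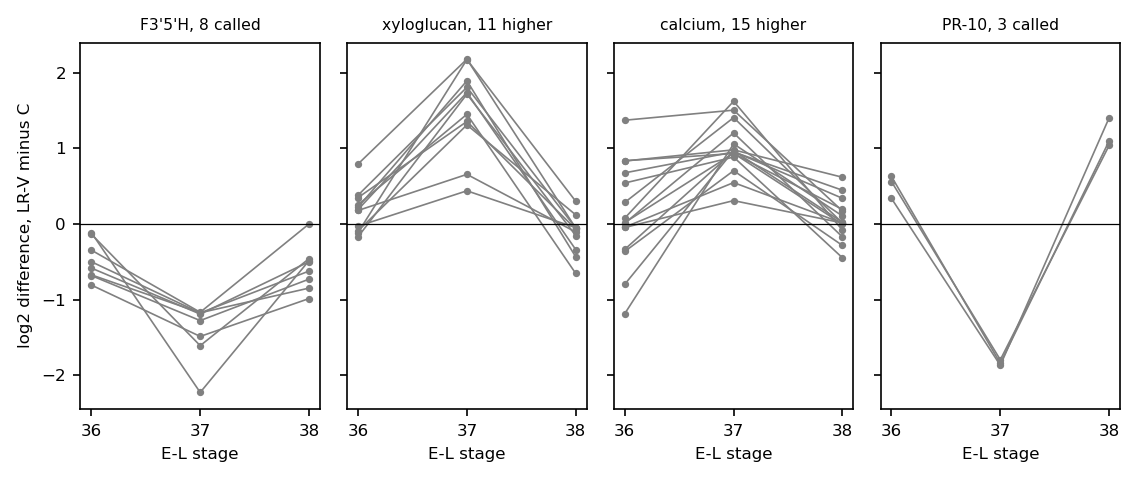
Log2 difference between LR-V and C (y axis) at E-L 36, 37 and 38 (x axis), one line per gene, for the 8 F3′5′H genes, 11 xyloglucan genes, 15 calcium genes and 3 PR-10 genes called at E-L 37. Genes were picked by their call at E-L 37, so a peak or dip there is built in, and what the panels show is the level at the other stages, such as the PR-10 lines that lie above 0 at E-L 36 and 38.

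LM-V berries at E-L 37, whose clusters were exposed without loss of leaves, share the C libraries with LR-V, so the treatments were compared directly. No gene was called between LR-V and LM-V by limma, while 1387 genes (7.02%) had an unadjusted p under 0.05, and no other tool was run on this contrast. Without LR-V replicate B 1 gene was called, the methyltransferase VIT_201s0010g03510 (log2 -1.46, adjusted p = 0.0242), which was at 21.2, 19.2 and 17.5 FPKM in LM-V replicates A, B and C. Against C, LM-V had 113 called genes (0.572%), 73 higher and 40 lower (0.202%). Side by side, the median log2 difference of F3′5′H was -1.17 in LR-V and -0.44 in LM-V, with 8 and 0 genes called lower, and the summed family level in LM-V was 338, 298 and 390 FPKM. For xyloglucan genes 11 and 6 were called higher (0.369% of all tested genes in LM-V). The calmodulin-like VIT_205s0102g00450, at 35.0, 52.4 and 32.3 FPKM in LM-V, was called against C in both treatments, as were TIFY 5A VIT_210s0003g03810 (32.2, 33.3 and 23.3) and the chitinase VIT_205s0094g00360 (5.34, 10.3 and 3.3). PR-1 VIT_203s0088g00710 was at 0.94, 0.62 and 0 FPKM in LM-V, below every C library as in LR-V. A difference between LR-V and LM-V was thus not detectable for these genes with 3 libraries each, which does not show that the treatments act alike.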

How the data were processed

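RNA of deseeded, frozen berries was sequenced by the authors as short single reads and mapped to the grapevine genome V2 with at most a few mismatches (Bowtie2 2.2.5 in the submitters' processing notes). The deposited values are FPKM per gene and library, to 2 decimals, as made by the authors. The program behind the FPKM and the use of strand were not given in the sources used here. No read counts were used, so no count model was run.

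Genes with at least 1 FPKM in at least 3 libraries were tested on log2(FPKM + 1) with limma 3.58.1 (intensity trend, robust; statmod 1.5.0, R 4.3.3). The 27 libraries were fitted as 9 groups that share 1 estimate of the spread, and p-values were adjusted over all tested genes (Benjamini-Hochberg, threshold 0.05). With a pseudocount of 1, fold changes of low genes are understated. The script was tested on simulated data. Tables were made with Python 3.11.15, pandas 2.3.3 and numpy 2.4.6.

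Genes were assigned to 80 lists by the deposited annotation, and 6982 genes were matched to RefSeq names. Members and lists were chosen with earlier results of these data known, and 4 lists (MATE, ABCG, U-box, PR-10) after values had been seen. Genes were named from those that met a rule: the 10 highest and 10 lowest called genes with non-overlapping groups and a mean of at least 1 FPKM, up to 4 genes per list with the smallest adjusted p, the most expressed called gene of each list, and genes that the study names. Not every gene that met a rule is named, and some called genes of the study are left out. Alternatives were the pseudocount, the filter, median-of-ratios scaling, a block for the replicate letter, plain empirical Bayes, a seed storage covariate, the 6 libraries alone, omission of libraries, and a rebuilt form of the NOISeq rule (fold of at least 2, probability of at least 0.8).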

Additional observations from a re-analysis of the deposited data

Results flagged for a closer look

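The effect of leaf removal at E-L 37 differed from its mean effect at E-L 36 and 38 in 965 genes by a test of the difference itself (limma, Benjamini-Hochberg adjusted p under 0.05), and genes named above are among them. The values below are log2 effects at E-L 37 minus the mean log2 effect at the other stages. They share the E-L 37 libraries with the choice of the genes, so their sign was partly fixed by that choice, and no explanation was tested.

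Among pigment and phenylpropanoid genes, the difference was -1.93 for F3′5′H VIT_206s0009g03000 and -1.31 for VIT_206s0009g03010, -1.01 for the methyltransferase VIT_201s0010g03510, -0.85 for MYBA3 VIT_202s0033g00390, -1.13 for MYBA1 VIT_202s0033g00410 (which was not called at E-L 37 itself), -3.24 for the MYB-annotated VIT_216s0039g01920, -1.11 for PAL1 VIT_206s0004g02620 and -2.09 for the CYP71D gene VIT_208s0032g00240. Among surface genes it was -0.81 for VIT_214s0006g02990, -0.82 for KCS10 VIT_204s0008g02250, -0.74 for VIT_213s0074g00390 and -0.91 for the ABCG gene VIT_216s0039g00010. Among defence genes it was -3.33 for PR-1 VIT_203s0088g00710, -2.59 and -2.70 for the PR-10 genes VIT_205s0077g01580 and VIT_205s0077g01570, -4.30 for VIT_205s0077g01150 and 2.26 for the chitinase VIT_205s0094g00360. For genes with no functional annotation it was -2.49 (VIT_218s0166g00250), -3.34 (VIT_211s0016g01580) and -3.53 (VIT_206s0004g07550).

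For the xyloglucan genes the difference was 2.08 (VIT_211s0052g01320), 1.81 (VIT_211s0052g01260), 2.0 (VIT_211s0052g01180), 1.88 (VIT_211s0052g01300), 1.65 (VIT_211s0052g01190) and 0.48 (VIT_217s0000g06590). For calcium genes it was 1.62 (VIT_205s0102g00450), 1.26 (VIT_206s0080g00450) and 1.36 (VIT_200s0691g00010). Regulators gave 1.67 for TIFY 5A VIT_210s0003g03810, 2.16 and 2.24 for the ERF genes VIT_219s0138g00090 and VIT_216s0100g00380, 1.39 and 1.12 for the WRKY genes VIT_202s0025g00420 and VIT_208s0058g00690, 1.04 for the TGA gene VIT_210s0003g01730 and 2.04 for the U-box gene VIT_208s0105g00190. It was 2.35 and 2.39 for the glucosyltransferases VIT_205s0062g00310 and VIT_205s0062g00270, 1.14 for GRIP22 VIT_206s0004g02560, -0.54 for the glutamine synthetase VIT_201s0011g02200 and -0.48 for the proteasome gene VIT_219s0014g02210.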

How the results depend on the processing

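The 991 genes called between LR-V and C were between 797 and 1056 under the other pseudocounts and filters, median-of-ratios scaling, plain empirical Bayes and the seed covariate. They were 249 (141 higher, 108 lower) with the 6 libraries alone, 417 (104 higher, 313 lower) without LR-V replicates B and C together, where the lone LR-V library is assumed to vary like the others, and 396 (278 higher, 118 lower) under the rebuilt NOISeq rule, which shared 181 genes with limma. With 1 library left out, the range was 322 to 1523 for LR-V against C, 408 to 1619 for the stage difference (965) and 0 to 1 for LR-V against LM-V. The omissions of LM-V libraries and of libraries at E-L 36 and 38 were chosen after seeing the data.

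Of 59 called genes named here, 52 stayed called without each of the 6 libraries in turn, 38 with the 6 libraries alone, 56 with a pseudocount of 0.1, 58 with the seed covariate and 41 without LR-V replicates B and C, and 0 changed direction. The cause of these losses was not tested. Over all 991 called genes, 236 stayed called without each of the 6 libraries in turn. The named genes were picked mostly for small adjusted p values or large differences, so their stability is not that of the other calls. The replicate letters did not pair the samples: deviations of same-letter libraries of LR-V and C correlated at -0.11, 0.24 and -0.21 for A, B and C, and of the LR-V libraries B alone correlated best with its own letter. With a replicate block, 893 genes were called for LR-V against C, 879 for the stage difference and 0 for LR-V against LM-V. Absolute depth is unknown, so counting error of low genes could not be set apart from the spread between vines, and an exact permutation test of 3 against 3 libraries cannot go below 0.1.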

Other observations

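Calls were also made among genes of nitrogen assimilation and of the proteasome, the complex that degrades ubiquitin-tagged proteins. They were 14.0% of the tested nitrogen and amino acid genes and 10.9% of the tested proteasome genes, against 5.01% of all tested genes. Of 43 tested nitrogen and amino acid genes 5 fell and 1 rose (2 and 2 after median-of-ratios scaling), with a median log2 difference of -0.10 against -0.09 over all tested genes, and the falls numbered 2 without C replicate B or C or LR-V replicate C and 3 without LR-V replicate A. Both most expressed called members were glutamine synthetases, which fix ammonium. VIT_217s0000g01910 was at 302, 282 and 298 FPKM in C and 207, 249 and 210 in LR-V (log2 -0.41 ± 0.07, or -0.30 after scaling, limma adjusted p = 0.0024), and VIT_201s0011g02200 at 65.3, 67.1 and 67.1 in C and 42.1, 49.2 and 45.3 in LR-V (log2 -0.54 ± 0.10, or -0.43 after scaling, adjusted p = 0.00227). The groups did not overlap in either gene, and both calls held without each library. Of 110 tested proteasome genes 11 fell and 1 rose (7 and 4 after scaling), with a median of -0.18 (-0.08 after scaling) and 18 falls without LR-V replicate B, 7 without C replicate B or LR-V replicate C, 6 without C replicate C or LR-V replicate A, and 10 without C replicate A. The proteasome gene VIT_219s0014g02210 had the smallest adjusted p of its list, 0.0019, at a log2 difference of -0.47 (-0.36 after scaling).

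Of 46 tested histone genes 6 fell as deposited and 1 after scaling, and 0 rose under either, with medians of -0.28 and -0.17. The 6 falls were 13.0% of the list, against 3.23% falls among all tested genes. The falls numbered 6, 0 and 2 without C replicate A, B and C and 2, 13 and 1 without LR-V replicate A, B and C. Of 65 tested gibberellin genes 5 rose and 3 fell (12.3% called, and 8 and 2 after scaling), with 1 to 3 rises when a library was left out. Among 214 disease resistance genes 7 rose and 5 fell (8 and 4 after scaling), a share of 5.61% called that is near the 5.01% of all tested genes, and the rises numbered 6, 2 and 3 without C replicate A, B and C and 1, 9 and 2 without LR-V replicate A, B and C. The most abundant transcript of the berries, VIT_205s0049g00520, was at 74751, 77030 and 73226 FPKM in C and 104025, 69525 and 101829 in LR-V (adjusted p = 0.215), and the groups overlapped through LR-V replicate B. This gene was chosen after its values were seen.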
